A study of Mus musculus with 3 samples.

Results

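The miRNA clusters known from pluripotent cells, miR-290 to miR-295 (the miR-290 cluster) and miR-302 with miR-367 (the miR-302 cluster), were followed in small RNA libraries of extracellular vesicles (EVs) from mouse testis. The rule for members uses names alone, but it was set with earlier results of these data known. It takes every mature or hairpin entry of a known miRNA from miR-290 to miR-295, of miR-302 and of miR-367. Of 805 identifiers with a mature or hairpin count in any library, predicted miRNAs included, 10 were members, and all 10 belonged to the miR-290 cluster. The miR-302 cluster had 0 entries of either type. The libraries came from a single condition, EVs of C57/BL6 male mice at postnatal day 7 (PND7), with 3 biological replicates, each prepared from 10 pooled mice, and the samples analysed here hold no group to compare them with, although their titles call the EVs treated. The EVs were taken from the medium of the digested, decapsulated testis and treated with proteinase K, PMSF and RNase A before extraction, and they can stem from any cell type of the testis. A low level of a miRNA can therefore come from few donor cells or from little of the miRNA per cell, among other reasons, and these cannot be told apart. By PCR, the authors found some miRNAs enriched in these EVs and others lower than in total testis RNA. A level in EVs is thus not a level in cells.

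Replicates 1, 2 and 3 held 870967, 1005836 and 966468 mature miRNA counts and 493345, 612122 and 577529 hairpin counts. Levels are given as counts per 1000000 (CPM) of the mature or of the hairpin counts of the same library. A single count was thus worth about 1 CPM among mature entries, and an entry with 0 counts may have had up to 3 counts, or 2.98 to 3.44 CPM. The catalogues list entries down to 1 count. Intervals below are exact 95% Poisson intervals, and they and this limit cover counting error only. Of the marker miRNAs of testicular and neighbouring cells, the gonadal somatic miR-202 arms summed to 21203 to 29797 CPM and the endothelial miR-126a arms to 8790 to 17143 CPM. The erythroid markers summed to 356 to 597 CPM, the leukocyte markers to 336 to 628 CPM and the muscle markers to 572 to 1040 CPM, whereas liver miR-122-5p had 1 count in replicate 2 alone. Of the 3 markers of meiotic and later germ cells, miR-449a-5p had 442 to 1060 CPM, and miR-34b-5p and miR-34c-5p had 0 mature counts. The 3p arms of the latter miRNAs, which were not on the list, were counted, with mean levels of 73.5 CPM for miR-34b-3p and 54.8 CPM for miR-34c-3p.

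The miR-290 cluster is transcribed as a single precursor RNA that is cut into several hairpins, and it is the leading miRNA cluster of mouse embryonic stem cells. It also remains active in early germ cells. The miR-302 cluster encodes related miRNAs and is known from the epiblast and from stem cells primed for differentiation. A miRNA finds its targets mainly through its seed, bases 2 to 8 from the 5′ end, and the shared seed of both clusters is known for promoting cell cycle entry and for opposing the differentiation that let-7 supports.

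RefSeq mature sequences (GRCm38.p6) matched 9 of the 10 members with counts. They are shown because the seeds sort the members into families, with the seed in capitals. The 3p members were
miR-294-3p: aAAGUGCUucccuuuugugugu
miR-291a-3p: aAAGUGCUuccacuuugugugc
miR-295-3p: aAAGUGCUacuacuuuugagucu
miR-291b-3p: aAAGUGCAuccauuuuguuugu
miR-293-3p: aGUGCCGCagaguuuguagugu
and the 5p members were
miR-291a-5p: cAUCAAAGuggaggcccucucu
miR-291b-5p: gAUCAAAGuggaggcccucucc
miR-292a-5p: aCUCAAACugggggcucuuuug
miR-292b-5p: aCUCAAAAccuggcggcacuuuu
miR-292a-3p, the tenth member, is named only. The following members of the miR-302 cluster had 0 counts and are shown because some carry the very same seed:
miR-302b-3p: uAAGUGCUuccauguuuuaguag
miR-302d-3p: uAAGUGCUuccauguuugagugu
miR-302c-3p: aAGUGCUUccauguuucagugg
miR-367-3p: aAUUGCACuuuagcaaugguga
miR-302a-3p, of the same cluster, is named only.

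As a whole, the mature entries of the miR-290 cluster were scarce, and their sum was similar in the 3 libraries. Their sum was 268 counts in replicate 1, 325 in replicate 2 and 302 in replicate 3, or 308, 323 and 312 CPM. The mean was 314 ± 7.89 CPM (SD, n = 3), which is 0.0314% of the mature miRNA counts. The exact binomial 95% interval of that share was 0.0272% to 0.0347% in replicate 1, 0.0289% to 0.0360% in replicate 2 and 0.0278% to 0.0350% in replicate 3, and these intervals overlapped between all libraries. The similarity was lost without miR-292a-3p, where the sums were 207, 281 and 176 CPM, a mean of 221 ± 54.2 CPM (SD, n = 3). Other members also differed between libraries, miR-291b-5p with 25.3, 30.8 and 99.3 CPM and miR-293-3p with 0, 65.6 and 0 CPM. Leaving out these members was not tried. The hairpin entries of the same members summed to 279, 338 and 376 counts, a mean of 590 ± 53.6 CPM of the hairpin counts (SD, n = 3).

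The members behind the sum changed from library to library. Of the 9 members with mature counts, 3 were counted in every library, 1 in replicates 1 and 2, and 5 in a single library. Those 3 members held 191 of the 268 counts in replicate 1, 162 of 325 in replicate 2 and all 302 in replicate 3. Over all 604 mature entries, 54.1% were counted in every library and 28.6% in a single library. Among the other 260 mature entries whose highest count lay between 20 and 132, as it did for the members, 44.6% were counted in every library and 26.5% in a single library.

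**Figure D1:**
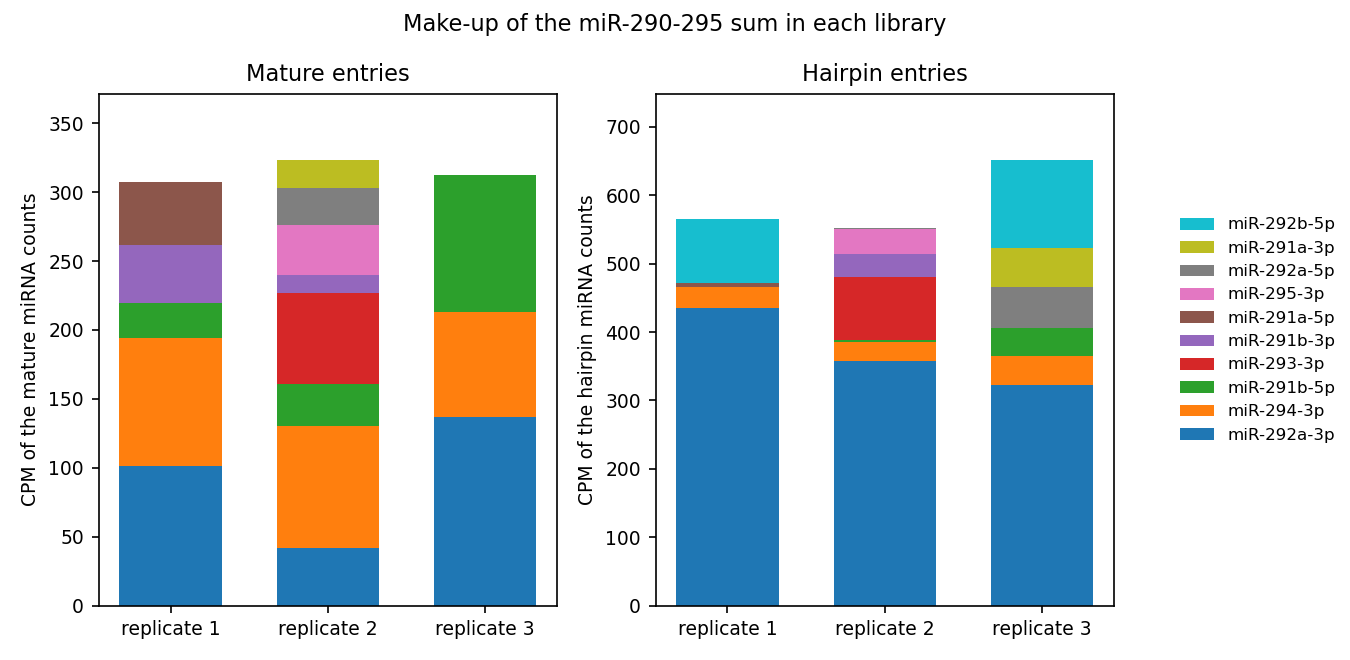
The height of each stacked bar is the miR-290 cluster sum in CPM of the mature (left) or hairpin (right) counts of 1 library, and the colours are its members. The mature bars end between 308 and 323 CPM with different colours in each library, and miR-292a-3p fills most of the hairpin bars in replicates 1 and 2.

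miR-292a-3p had the highest mean mature level of the cluster. Its counts were 88, 42 and 132 in replicates 1, 2 and 3, a mean of 93.1 ± 47.9 CPM (SD, n = 3), and it ranked 184 of the 604 mature entries. Replicate 2 was the low library, and its interval of 30.1 to 56.4 CPM lay below those of replicate 1 at 81.0 to 124 CPM and replicate 3 at 114 to 162 CPM.

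miR-294-3p, a member with the AAGUGCU seed, varied least of the 3 members counted in every library, and it was singled out for this after its values were seen. It had 81, 89 and 74 counts, or 93.0, 88.5 and 76.6 CPM, with a mean of 86.0 ± 8.49 CPM (SD, n = 3) and rank 189. The intervals of all libraries overlapped. Its highest CPM was 1.21 times its lowest, against a median of 2.97 over the 152 mature entries counted in every library with means of 10 to 200 CPM. For miR-292a-3p and miR-291b-5p the ratios were 3.27 and 3.93.

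miR-291b-5p was the third member counted throughout. It had 22, 31 and 96 counts, a mean of 51.8 ± 41.3 CPM (SD, n = 3) at rank 243. Replicate 3 stood above the others, with an interval of 80.5 to 121 CPM against 15.8 to 38.2 CPM in replicate 1 and 20.9 to 43.7 CPM in replicate 2.

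Of the remaining members, most appeared as mature miRNAs in replicate 2. miR-293-3p had 0, 66 and 0 counts, miR-295-3p had 0, 37 and 0, miR-292a-5p had 0, 27 and 0, and miR-291a-3p had 0, 20 and 0 counts in replicates 1, 2 and 3. miR-291a-5p was counted in replicate 1 alone, with 40, 0 and 0 counts, and miR-291b-3p had 37, 13 and 0 counts. Even the lowest of these single-library counts, 20, had an interval of 12.2 to 30.9 counts, above the 3 counts that an entry at 0 may have had. Their means were 6.63 to 21.9 CPM and their ranks 331 to 471. In the order of mean levels, each of the 8 neighbouring pairs of members had a mean difference smaller than its SD over the libraries, so neighbouring places in the order are not resolved. Members further apart could be told apart in part, since miR-294-3p lay above every other member named in this paragraph in 3 of 3 libraries.

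**Figure D2:**
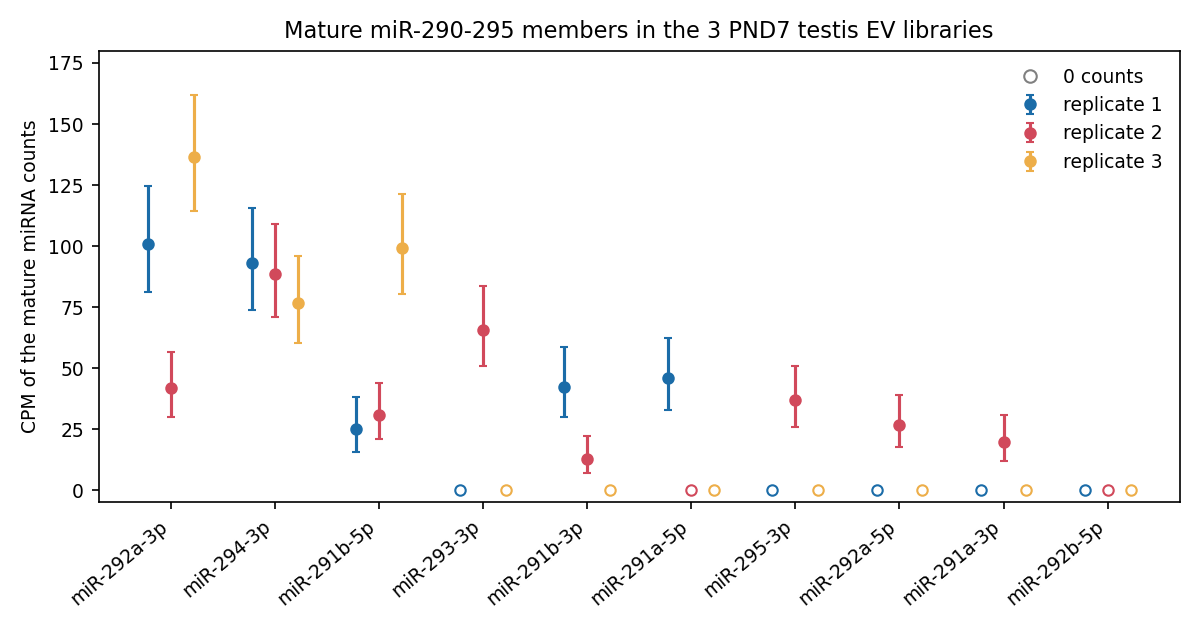
Each point is the mature level of 1 member in 1 library, in CPM of the mature miRNA counts, with its exact 95% Poisson interval, and open points mark 0 counts. miR-294-3p has overlapping intervals in the 3 libraries, whereas miR-293-3p stands at 65.6 CPM in replicate 2 and at 0 elsewhere.

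**Figure D3:**
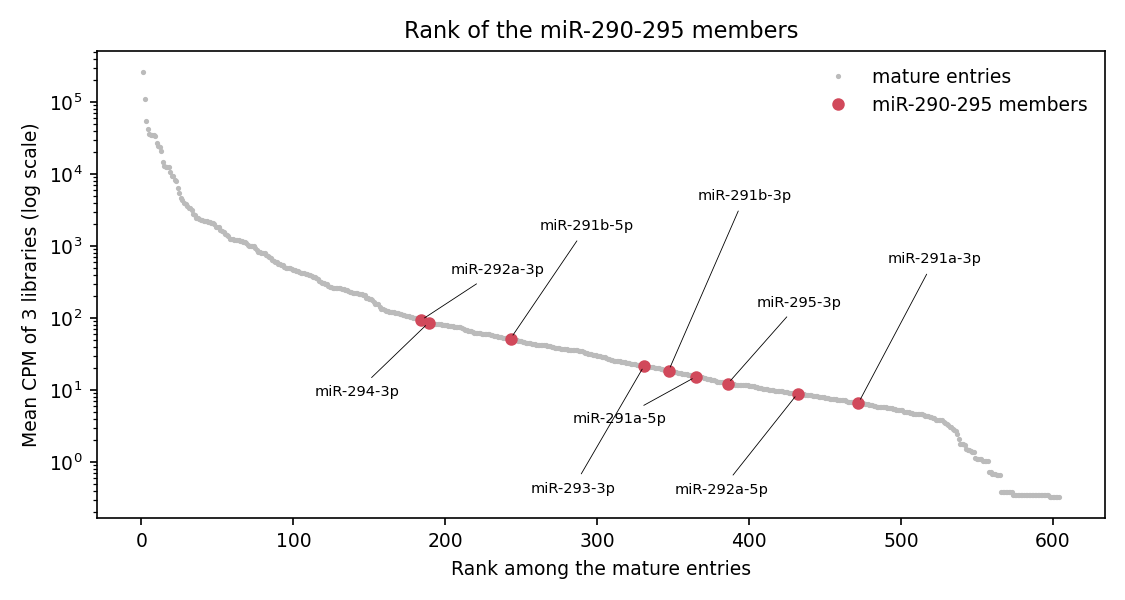
The mean CPM of each of the 604 mature entries (log scale) is plotted against its rank, with the 9 members in red. They spread from rank 184 to rank 471.

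Some members differ by few bases, so their separate counts are uncertain, and whether reads were split between them was not tested. Positions are counted from 1 at the 5′ end, with the first-named miRNA's base first. miR-291a-5p and miR-291b-5p differ at 2 of 22 bases, C1G and U22C, and share their seed. Summed over this seed, they had 62, 31 and 96 counts, a sum that still differed between libraries. miR-291a-3p and miR-294-3p differ at 3 of 22 bases, A12C, C13U and C22U, and miR-294-3p and miR-291b-3p also differ at 3, U8A, C12A and G19U. The 3p members that carry AAGUGCU, miR-291a-3p, miR-294-3p and miR-295-3p, summed to 81, 146 and 74 counts, of which miR-294-3p made up all 81 in replicate 1 and all 74 in replicate 3.

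Hairpin entries, a type that the study names without defining and counts apart from mature entries, gave another order. miR-292a-3p led with 215, 219 and 186 hairpin counts, or 372 ± 58.2 CPM of the hairpin counts (SD, n = 3), and ranked 146 of 743. Its hairpin counts exceeded its mature counts in every library and made up 71.0%, 83.9% and 58.5% of the sum of both. For miR-294-3p the balance was the opposite, with 15, 17 and 25 hairpin counts, or 15.6%, 16.0% and 25.3% of the sum. miR-292b-5p had hairpin counts only, 46 in replicate 1 and 74 in replicate 3, and 0 counts of either type in replicate 2. It is thus the reverse of miR-293-3p, which had 56 hairpin and 66 mature counts in replicate 2 and 0 elsewhere. This pair was singled out after its values were seen. miR-291a-3p and miR-292a-5p were listed as hairpin in replicate 3, with 33 and 35 counts, and as mature in replicate 2.

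The hairpin share of all member counts was 51.0%, 51.0% and 55.5%, against 36.2%, 37.8% and 37.4% for all miRNA identifiers. The difference was 15.3 ± 2.49 percentage points (SD, n = 3) and was above 0 in 3 of 3 libraries (two-sided exact permutation test by flipping signs, p = 0.25). With 3 libraries this test cannot go below 0.25, and the Benjamini-Hochberg adjusted value over the 3 tests planned was 0.25. The difference depended on miR-292a-3p. Without it the member share was 26.2%, 29.6% and 52.8%, and the mean difference was -0.93 percentage points (exact permutation p = 1). The median hairpin share over single members was 41.6%, below the median of 62.1% over all 805 identifiers.

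**Figure D4:**
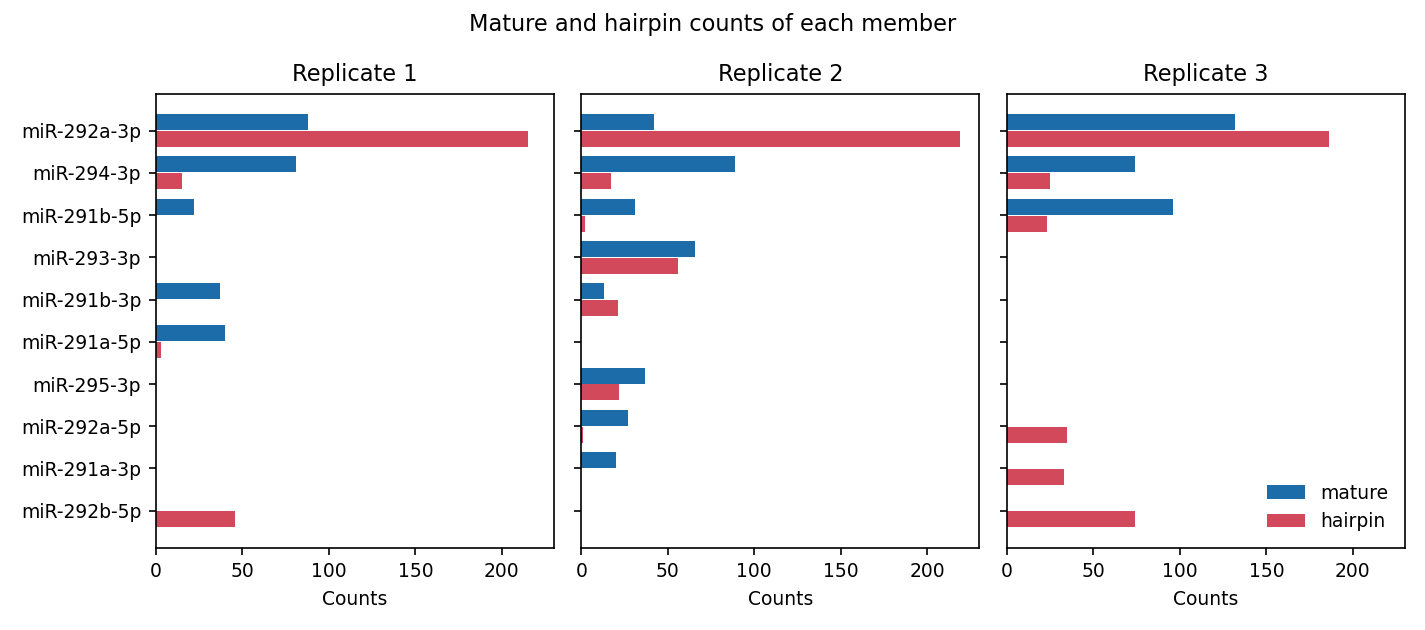
Bars give the mature (blue) and hairpin (red) counts of each member in each library. miR-292a-3p has 186 to 219 hairpin counts in every library, and miR-292b-5p has red bars in replicates 1 and 3 only.

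The arms of the hairpins were unequally represented. The 3p arms together had 206, 267 and 206 mature counts, and the 5p arms 62, 58 and 96. The log2 ratio of 3p to 5p, with 0.5 counts added to each, was 1.72, 2.19 and 1.10, a mean of 1.67 ± 0.55 (SD, n = 3), above 0 in 3 of 3 libraries (two-sided exact permutation test by flipping signs, p = 0.25, adjusted p = 0.25). Without miR-292a-3p the ratio was 0.92, 1.95 and -0.37, so that in replicate 3 its direction turned, and the mean was 0.83 (exact permutation p = 0.5). Pooled over the libraries, the 3p excess was not shared by all precursors. Mir291b gave 149 counts of its 5p arm and 50 of its 3p arm, and Mir291a gave 40 and 20. The direction turned between libraries for these precursors. Mir291b had 22, 31 and 96 counts of the 5p arm against 37, 13 and 0 of the 3p arm. Mir291a had 40, 0 and 0 against 0, 20 and 0, so its arms were never counted in the same library. For Mir293, Mir294 and Mir295 only 3p arms were counted, and for Mir292 the 3p arm had 262 mature counts against 27.

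In the GENCODE annotation of GRCm38, 9 precursors of the miR-290 cluster lie on chromosome 7 between 3218626 and 3220841, a span of 2216 bases, 7 of them on the plus strand. Mir291a to Mir295 lie within Nlrp12, a minus-strand gene, and each overlaps 1 of its annotated exons. Mir290a, the first precursor, and Mir290b, opposite to it, had 0 mature and 0 hairpin counts in every library. Mir292b lies on the minus strand from 3219198 to 3219259, inside the span of Mir292 from 3219189 to 3219270 on the plus strand. Mir292, with both arms summed, had 215, 220 and 221 hairpin counts and 88, 69 and 132 mature counts. The level did not run in 1 direction along the cluster. Mir291a, 293 bases from the start of Mir290a, had 40, 20 and 0 mature counts, and Mir294, at 2015 bases, had 81, 89 and 74. Mir295, the last precursor at 2147 bases, had 0, 37 and 0.
The precursor of the least variable of these members, with miR-294-3p in capitals from base 51 to base 72 of 84, lies at chr7:3220641-3220724 on the plus strand:
Mir294: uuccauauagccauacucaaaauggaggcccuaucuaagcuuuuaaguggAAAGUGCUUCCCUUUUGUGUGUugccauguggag
The minus-strand precursor, with miR-292b-5p in capitals from base 1 to base 23 of 62, is
Mir292b: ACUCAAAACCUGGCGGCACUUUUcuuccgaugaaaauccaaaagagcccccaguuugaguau

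**Figure D5:**
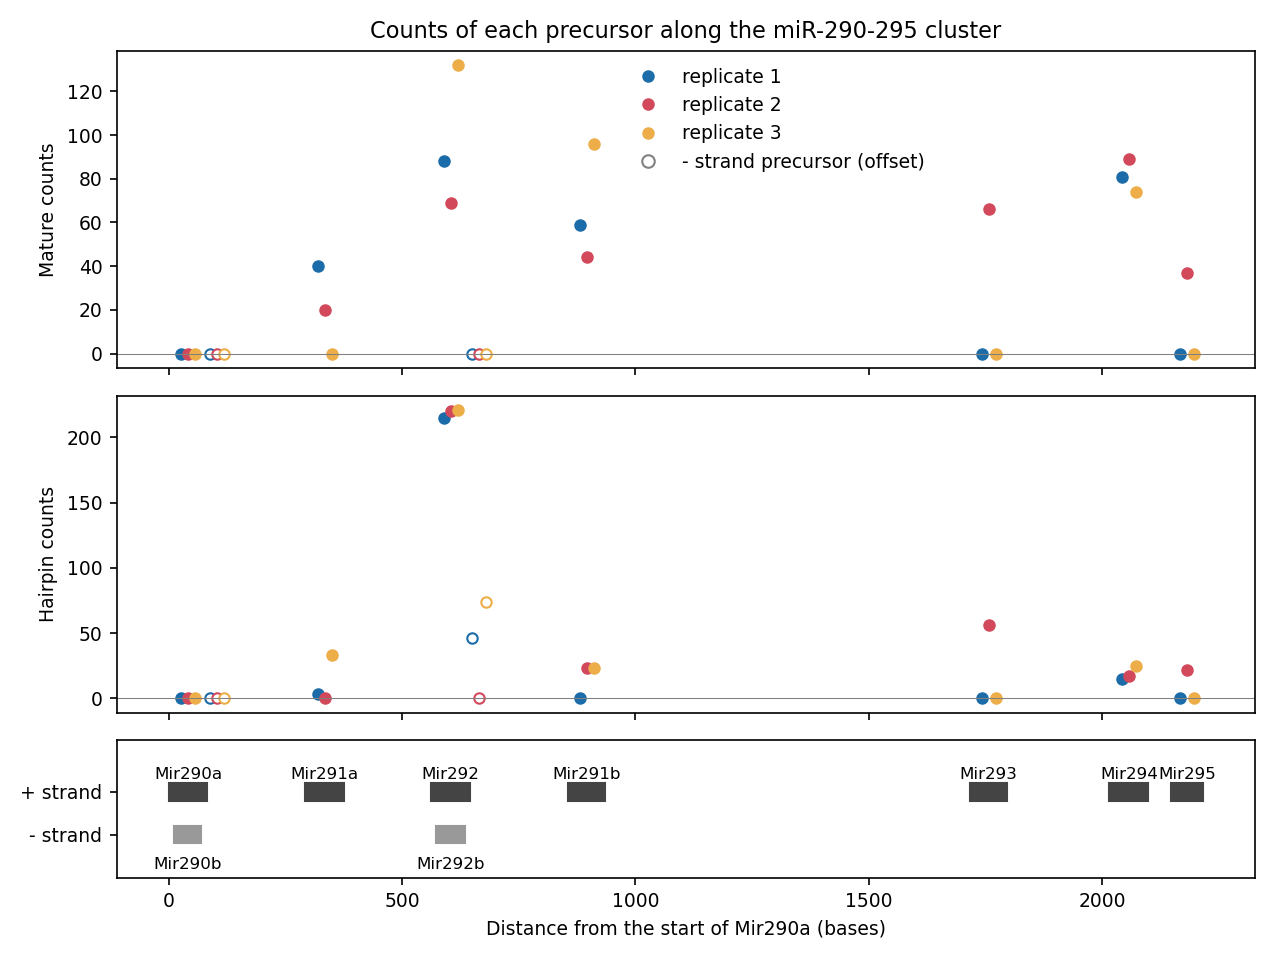
Mature (top) and hairpin (middle) counts of each precursor are plotted against its distance in bases from the start of Mir290a, with 1 point per library and open points for minus-strand precursors, and points are set apart sideways for clarity. Boxes (bottom) show the precursors to scale. The 3 hairpin points of Mir292 lie between 215 and 221, and Mir290a is at 0 in every library.

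The miR-302 cluster lies on chromosome 3 between 127545228 and 127545807, where its 5 precursors lie within Larp7, on the opposite strand, and overlap 0 exons of its 4 transcripts. All 9 RefSeq names of its mature members, and any other miR-302 or miR-367 name, had 0 mature and 0 hairpin counts in each library. This allows up to 3 counts per library. Against 3 counts, and with its own counting error left aside, the mature miR-290 cluster sum was at least 89.3-fold higher in replicate 1, 108-fold in replicate 2 and 101-fold in replicate 3. The planned test of the log2 ratio of the sums is void, because a ratio to a sum of 0 could only be above 0. The seed AUUGCAC of miR-367-3p is shared by 5 RefSeq miRNAs outside the clusters. As mature entries, 3 of them were counted well in every library and 2 were at or near 0. miR-25-3p had 2435, 3384 and 2202 counts, miR-92a-3p 518, 431 and 429, and miR-92b-3p 122, 106 and 60. miR-32-5p had 1, 0 and 4 counts and miR-363-3p 1, 0 and 0. As hairpin entries, miR-32-5p had 105 and miR-363-3p 14 counts over the libraries. miR-25-3p, miR-92a-3p and miR-92b-3p had 3702, 12865 and 102 hairpin counts.

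Among the 1679 RefSeq mature names used here, no name outside these clusters carries the seed AAGUGCU. The seed AAGUGCA of miR-291b-3p is shared there with miR-350-5p alone, which had 23, 0 and 5 counts. This list is incomplete, since it lacks miR-292a-3p and miR-302a-3p. Counted miRNAs that are missing from it may carry the same seeds, and their sequences were not searched. The 6 letters AAGUGC also occur in the miR-17 family, 1 base further from the 5′ end. Of the 1679 names on the list, 8 hold AAGUGC from base 2, among them 7 members, and 8 hold it from base 3. The sums below cover listed names only. This grouping was chosen after the values were seen. Among the members with a sequence here, those with AAGUGC from base 2 had 118, 159 and 74 mature counts, a mean of 123 ± 42.1 CPM (SD, n = 3), a sum that does not include miR-292a-3p. The other miRNAs with it from base 3 had 470, 894 and 712 counts, a mean of 722 ± 175 CPM, of which miR-93-5p made up 336, 837 and 588 counts. miR-20a-5p had 38, 56 and 40 counts, miR-17-5p 63, 1 and 30, and miR-106b-5p 33, 0 and 54.

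The let-7 and miR-17-92 groups give a scale for the mature level of the cluster. The 5′ arms of let-7 were 814, 879 and 1063 times as abundant as the mature miR-290 cluster sum in replicates 1, 2 and 3. The miR-17-92, miR-106b-25 and miR-106a-363 clusters, which are widely active in dividing cells, exceeded it by factors of 13.4, 15.1 and 11.6. Most of their 3604, 4909 and 3492 mature counts belonged to miR-25-3p, with 2435, 3384 and 2202. It carries the seed AUUGCAC and not AAGUGC, as does miR-92a-3p with 518, 431 and 429 counts. Hairpin entries gave another scale, with mean sums of 211934 CPM for the 5′ arms of let-7 and 590 CPM for the miR-290 cluster. The mean hairpin sum of the miR-17-92, miR-106b-25 and miR-106a-363 clusters was 18135.5 CPM. The ratios above describe mature levels within each library and were not tested.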

How the data were processed

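The authors sequenced small RNA of PND7 testis EVs on the BGISEQ-500, removed low-quality reads, used Bowtie2 and cmsearch for mapping, and placed every entry in 1 class, with miRBase first. The submitters' processing notes name mm10. Versions and mismatches are not given in the sources used here. The authors deposited raw counts per small RNA and type and the percent of clean reads per class. A deposited column headed as molecular identifiers was not used, being a rescaled count. The class totals of mature and hairpin counts equalled the catalogue sums.

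Counts were scaled to 1000000 mature or hairpin counts, predicted miRNAs included, and missing entries were set to 0. With 3 libraries of 1 group, differences between values of the same library were tested by exact sign flips with 0.5 counts added. The libraries differed beyond sampling noise (chi-square per degree of freedom at least 96.6 over 272 miRNAs) and were counted separately. The members and lists were chosen with earlier results of these data known. All members with a count, the 3 highest relatives per shared seed and the 3 miRNAs on either side in level were named. Marker lists covered gonadal somatic, germ, erythroid, leukocyte, endothelial, muscle and liver miRNAs. Sequences came from RefSeq (GRCm38.p6), gene positions from GENCODE vM21. Scripts were tested on simulated data. Calculations used SciPy 1.17.1 and numpy 2.4.6, tables pandas 2.3.3 under Python 3.11.15, and plots matplotlib 3.10.9.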

Additional observations from a re-analysis of the deposited data

Results flagged for a closer look

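Counts named for the miR-302 family stood outside the mature and hairpin entries. The Rfam precursor family mir-302 had 4 counts in replicate 2, a number above the limit of 3 counts, and 0 counts in replicates 1 and 3. The exact 95% Poisson interval of the 4 counts was 1.09 to 10.2 counts. The limit of 3 counts describes entries at 0 and is not a background level. Whether the 4 counts stand above background was not tested. These 4 counts were among 157412 precursor counts of that library, and there was no control library. The Rfam family mir-290 had 1 count, in replicate 3.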

How the results depend on the processing

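The median over identifiers and the values without miR-292a-3p were chosen after seeing the data. The miR-290 cluster sum was 314 CPM, and 221 without miR-292a-3p. It was 11.2 per 1000000 clean reads, a change of unit. With mature and hairpin entries summed it was 417, a change of the entries counted as well as of the unit. The CPM sum stayed within the SD with pooled libraries and median-of-ratios size factors. A minimum of 10 counts removed no member. Leaving out each replicate gave 310 to 318 CPM, a step that cannot move a mean of 3 by its SD. The miR-302 cluster sum was 0 under every alternative run, which was fixed in advance because the cluster had 0 mature and hairpin entries. The hairpin share difference of 15.3 percentage points reversed to -0.93 without miR-292a-3p and to -20.5 as a difference of medians over identifiers. The log2 ratio of 3p to 5p kept a mean above 0 under the alternatives run, but without miR-292a-3p its mean of 0.83 had an SD of 1.16 and replicate 3 was below 0. No test can pass 0.05 with 3 libraries. The number of members was 10, and 3 when counts were required in every library. Of 45 alternatives for single members, 43 stayed within the SD, which is wide for members at 0 in some library. Those that left out a replicate, 9 for each replicate, had to stay, because this cannot move a mean of 3 by its SD. The 2 that moved did so with mature and hairpin entries summed (miR-292a-3p to 196 CPM and miR-294-3p to 66.7 CPM). Without replicate 2, miR-291a-3p, miR-292a-5p, miR-293-3p and miR-295-3p fell to 0 mature counts, and without replicate 1 miR-291a-5p did. No paired analysis was possible because there is a single group, with no second group to share its replicate numbers (the sign flips pair values within a library). Depth limits all members, since each had at most 219 counts of a type in a library.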

Other observations

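The 3 mature miRNAs just above miR-292a-3p in mean level were miR-450b-3p, miR-547-3p and miR-669p-5p, at 99.8 ± 35.3, 99.1 ± 94.4 and 96.6 ± 167 CPM (SD, n = 3 each). miR-669p-5p, a member of the Sfmbt2 intronic family, was counted in replicate 3 alone, with 280 counts. The 3 just below were miR-195a-5p, miR-1195 and miR-300-3p, at 92.4 ± 18.5, 90.6 ± 70.8 and 90.2 ± 47.4 CPM (SD, n = 3 each). The likeness is one of mean level over 3 libraries only.

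For hairpin entries, 2 of the 10 members were counted in every library and 5 in a single library, whereas 55.6% of all 743 hairpin entries were counted in every library and 27.2% in a single library.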
